A study of Mus musculus with 6 samples.

Results

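The amino acid transporter families Slc1, Slc3, Slc6, Slc7, Slc36, Slc38 and Slc43 were examined in alveolar type II cells, the surfactant-producing cells of the lung, from Stat3Δ/Δ and control mice. Members were all probe sets that name 1 gene whose symbol belongs to these families. They comprised 63 of the 18193 genes on the array and 125 of the 45037 probe sets tested. Of the 63 genes, 60 encode carriers, and 3 (Slc7a6os, Slc6a19os and Slc36a1os), with 4 probe sets, are opposite-strand genes that bear a carrier's symbol. A probe set that names Slc1a2 together with another gene was left out. Slc38a8 and Slc38a11 were not analysed here.

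Stat3Δ/Δ mice carried SP-C-rtTA, (tetO)7CMV-Cre and Stat3flx/flx, and their dams received doxycycline through gestation and suckling, so that Cre removed exon 21 of Stat3 from the respiratory epithelium, in which the SP-C promoter is active before birth, and not from type II cells alone. Controls were non-deleted littermates on the same doxycycline food, and the sources differ on their genotype. The sample titles call them wild-type, one label field double transgenic, and another gives the triple-transgenic genotype for controls as well. In the study's methods they are carriers of SP-C-rtTA or tetO7CMV-Cre with Stat3flx/flx. All mice were 8 weeks old. After collagenase digestion and differential plating, each RNA was made from the type II cells of 3 mice, and 3 such pools from Stat3Δ/Δ mice and 3 from control mice went onto 1 MOE430 array apiece. In pooled RNA of such an isolate, fewer cells of a type and less RNA per cell cannot be told apart.

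Amino acid carriers set what a cell can draw on for protein, glutathione, nucleotide and surfactant protein synthesis. Sodium-coupled carriers of the Slc1, Slc6 and Slc38 families concentrate amino acids in the cell, exchangers of the Slc7 family, each a light chain held in the membrane by a Slc3 heavy chain, trade those for essential amino acids, and proton-coupled Slc36 carriers and some Slc38 carriers move amino acids out of lysosomes. Several of these genes are induced through the transcription factor ATF4 when amino acids are scarce. STAT3 is a transcription factor activated by cytokines, and it binds DNA as a dimer. In the lung, Slc6a14 is known as a carrier of the apical membrane of airway and alveolar epithelium.

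Because the study concerns a transcription factor, and because ATF4 acts on this gene class, the RefSeq promoter windows (GRCm38.p6, from 250 bases before to 50 after each start site, 300 bases) were searched for a palindromic STAT dimer site, TTCNNNGAA, and for the amino acid response element TGATGCAA on both strands. Windows were found for 46 of the 63 genes. The STAT letters occurred in 5 of 67 windows (7.46%), against 2726 of 32851 windows of all genes (8.30%), and so at about the same share. The amino acid response element occurred in 4 of 67 windows (5.97%), against 294 of 32851 (0.895%). By gene these were 5 of 46 (10.9%) and 3 of 46 (6.52%), against 9.55% and 1.03% of all genes. No match of one motif overlapped a match of the other. The stretches around the matches in carriers follow, 5′ to 3′ on the strand of the gene, with the matched letters in capitals. They are shown to let the letters be set beside the expression values of the same genes.
Slc7a11 STAT: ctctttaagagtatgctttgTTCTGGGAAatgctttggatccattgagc
Slc7a1 STAT: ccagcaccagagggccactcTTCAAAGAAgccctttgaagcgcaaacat
Slc38a9 STAT: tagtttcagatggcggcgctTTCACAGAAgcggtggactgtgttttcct
Slc1a3 STAT: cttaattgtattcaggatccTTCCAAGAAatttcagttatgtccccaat
Slc7a11 response elements: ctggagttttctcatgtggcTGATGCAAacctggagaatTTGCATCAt
Slc1a4 response element: cctccagcgtgcctcctgcgTTGCATCA
Slc7a7 response element: ttaatttgggacctagaagcTGATGCAA

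The STAT stretches lie on the minus strand at chr3:50443768-50443816 (Slc7a11), chr5:148392933-148392981 (Slc7a1) and chr15:8710875-8710923 (Slc1a3), and on the plus strand at chr13:112660670-112660718 (Slc38a9). Their matches begin 183, 146, 96 and 76 bases before the start sites of Slc7a11, Slc7a1, Slc1a3 and Slc38a9. The fifth match is at the opposite-strand gene Slc36a1os. The response elements lie on the minus strand at chr3:50443652-50443699 (Slc7a11, a pair in opposite orientation that begins 66 and 47 bases before the start site), chr11:20332710-20332737 (Slc1a4) and chr14:54417938-54417965 (Slc7a7, reached by windows of both of its start sites). A match is a description of letters in these windows and not a binding site.

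No transporter probe set was called by limma at the study's thresholds, which are an unadjusted p up to 0.05, an FDR up to 10% and a fold from 1.5 up. Over all probe sets limma called 1 (0.00222%). The study itself reported many significantly altered genes in both directions from its RMA values, some of them selected without the FDR. The fit here used the deposited signals, so its calls are not those of the study's own fit. The lowest adjusted p from limma among the 125 transporter probe sets was 0.448, for a probe set of Slc38a10. An equal-variance t-test on the same normalized values, called the t-test below, called none of them either. Without the FDR, as the study also selected changes that recurred in several probe sets of a gene, 12 transporter probe sets passed the thresholds on the unadjusted p and the fold, called the unadjusted thresholds below. Of these 7 were higher in Stat3Δ/Δ cells (5.60% of 125, where 4.14% of all probe sets were), and 5 were lower (4% of 125, where 4.22% of all probe sets were). Both shares lie near the background, and the counts do not set the carriers apart. With arrays centred on their medians in place of quantile normalization, 7 were higher and 8 lower (5.6% and 6.4% of 125), where 3.41% and 5.08% of all probe sets were.

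The picture depended on which probe set stood for a gene. Taken by the probe set with the highest mean signal, 0 of the 63 genes were higher at the unadjusted thresholds, where 2.19% of all genes were, and 3 were lower (Slc6a2, Slc6a11 and Slc6a13), where 5.56% of all genes were. On these probe sets the Stat3Δ/Δ arrays all lay above the control arrays in 0 genes (4.25% of all genes) and all below them in 6 (Slc6a2, Slc6a11, Slc6a13, Slc38a7, Slc43a1 and Slc43a2; 10.2% of all genes). The median log2 fold change of the 63 genes was -0.20, with 19 above and 44 below 0. That of all 18193 genes was -0.085, with 7411 above and 10782 below 0, so most genes of the array lay below 0 as well. The 62 other probe sets of the same genes had a median of 0.18, with 38 above and 24 below 0. All genes' other probe sets had 0.034, with 8986 above and 7766 below 0. Of the 12 probe sets past the unadjusted thresholds, 9 were not the brightest of their gene, and these included all 7 that were higher. In the 3 arrays whose titles begin with the same number (Stat3Δ/Δ pools 1 and 2 and control pool 3, called the shared-number arrays here), the median of the 63 genes was -0.034, beside -0.049 for all genes.

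**Figure D1:**
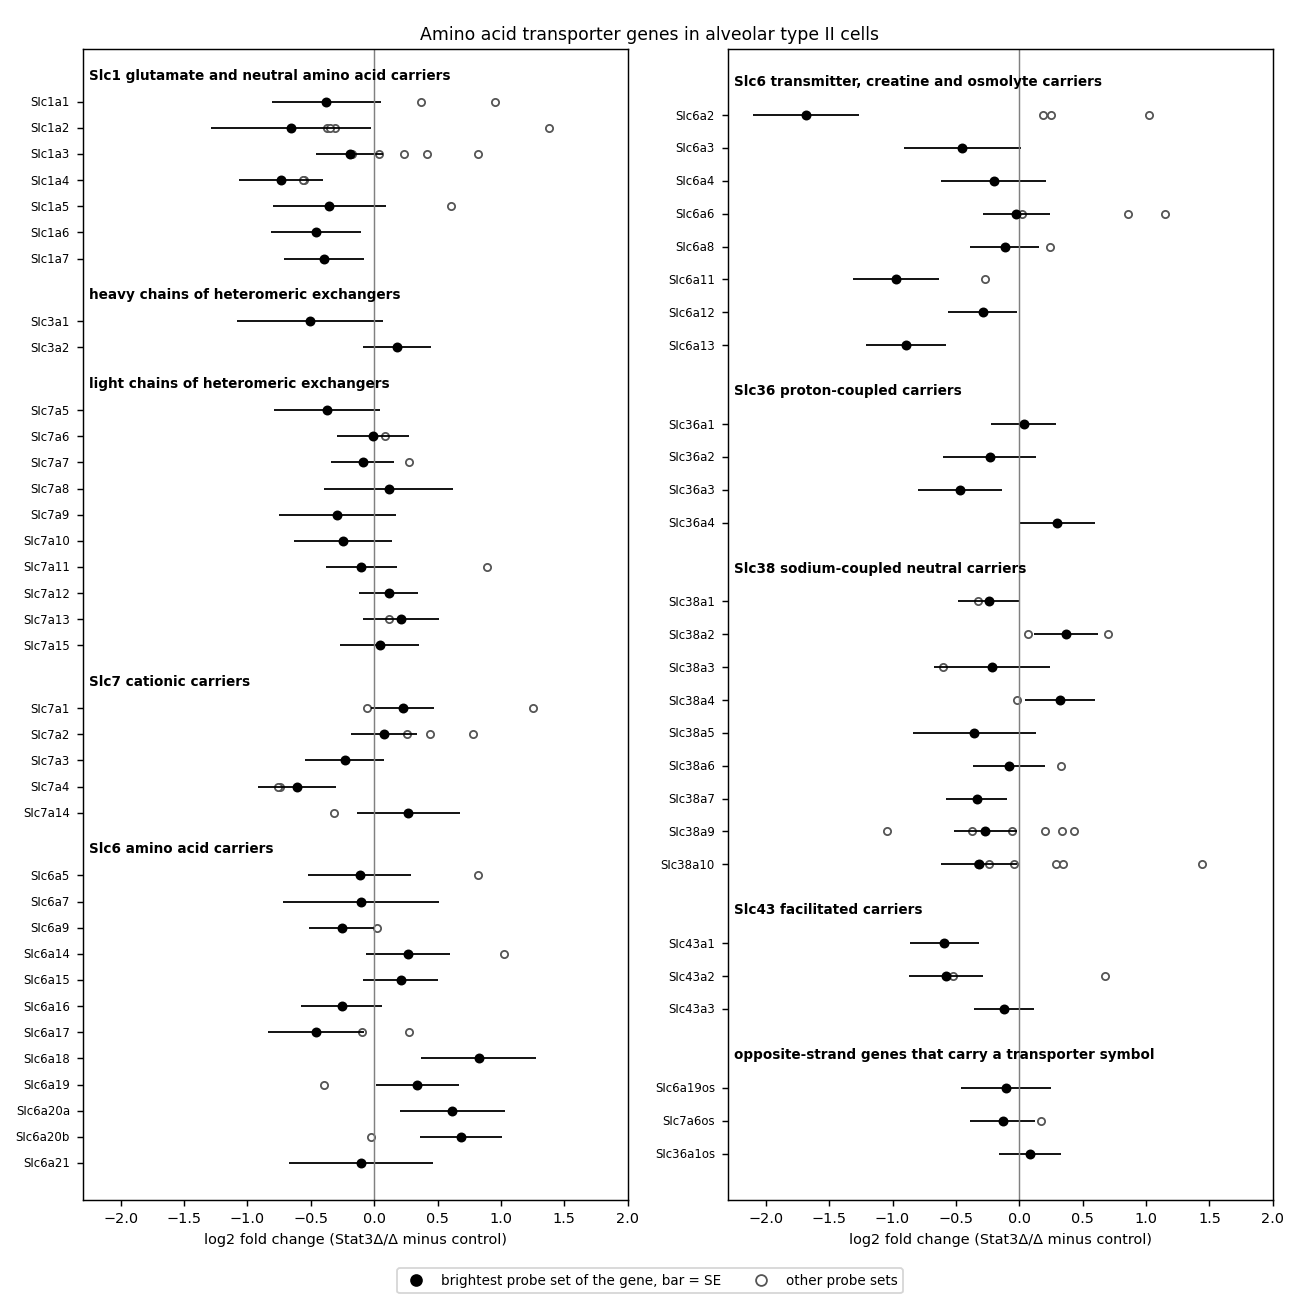
Log2 fold change (Stat3Δ/Δ minus control, x axis) of every transporter gene, grouped by family, with the brightest probe set filled (bar, SE) and the gene's other probe sets open. The filled points of all Slc1, Slc43 and transmitter-type Slc6 genes lie below 0, while 38 of the 62 open points lie above 0. Of all 18193 genes, 10782 lie below 0 by their brightest probe set.

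Signals are linear intensities scaled by the authors to the same trimmed mean on each array. Fold changes are on the log2(signal + 69.9) scale after quantile normalization, which understates the change of dim probe sets. A signal of one probe set cannot be read against that of another as a level of mRNA, and no detection call was used, so dim probe sets cannot be told apart from background. Probe sets whose identifiers end in _s_at or _x_at can bind more than 1 transcript, and Slc6a20a and Slc6a20b are close copies, so their values are uncertain. Of the 63 brightest probe sets, 25 lay below the median mean signal of all probe sets, and so did 9 of the 12 probe sets past the unadjusted thresholds. Signals are given for pools 1, 2 and 3 of each group in that order, and whether groups overlap was judged after normalization.

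**Figure D2:**
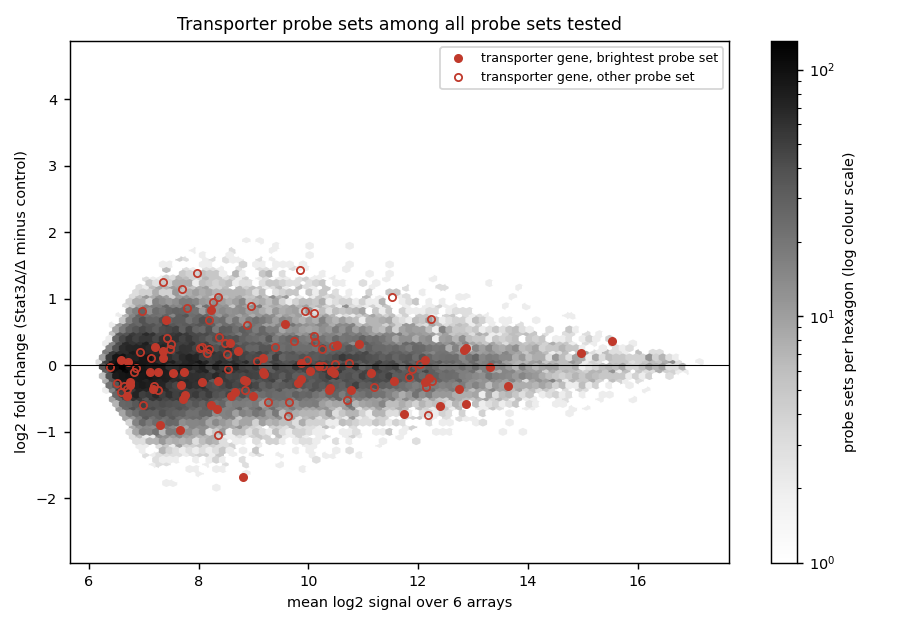
Log2 fold change (Stat3Δ/Δ minus control) against mean log2 signal over 6 arrays for all 45037 probe sets (grey hexagons) and the 125 transporter probe sets (red; filled where brightest of the gene). The transporter probe sets lie between -1.69 and 1.44, inside the range of all probe sets (-2.61 to 4.52).

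Of the probe sets for Stat3 itself, 2 of 4 separated the groups with Stat3Δ/Δ arrays lower. Both passed the unadjusted thresholds, and neither passed the FDR. Their log2 fold changes were -0.71, for the brightest, and -0.80, which are folds of 1.64 and 1.74. In the remaining Stat3 probe sets the groups overlapped, with log2 fold changes of 0.60 and -0.046. The paper cites earlier work in which Stat3 mRNA and protein were markedly reduced in type II cells of Stat3Δ/Δ mice. The remaining level cited there is a far smaller part of the control level than these folds give. The cause of this difference was not tested. Markers of alveolar type II cells, the labelled cell type, were high in both groups, with a summed signal over 8 genes of 614537 to 817022 in Stat3Δ/Δ pools and 733198 to 819034 in control pools. Of these 8 genes 5 had log2 fold changes below 0, and 1 (Abca3, -0.73) was lower at the unadjusted thresholds. Alveolar macrophages were the main other cell in these isolates per the study's methods. The study judged purity by a stain and reported that neither purity nor type II cell number differed between the groups. All 9 macrophage markers measured had log2 fold changes above 0 (median 0.54), and their summed signal was 116869 to 159205 in Stat3Δ/Δ pools and 84839 to 103343 in control pools, with no overlap. Neutrophil markers (4 of 6 above 0) summed to 30143 to 35368 in Stat3Δ/Δ pools and 18748 to 23250 in control pools. Those of fibroblasts (5 of 7 below 0) summed to 5323 to 10689 in Stat3Δ/Δ pools and 15913 to 31402 in control pools, and those of mesothelial cells (4 of 4 below 0) to 1985 to 3316 in Stat3Δ/Δ pools and 6203 to 9967 in control pools. Ciliated cell markers (5 of 6 below 0, median -0.77, 3 of them lower at the unadjusted thresholds) summed to 30652 to 43564 in Stat3Δ/Δ pools and 39081 to 52159 in control pools. Airway secretory markers (4 of 5 below 0) summed to 315518 to 444843 in Stat3Δ/Δ pools and 414287 to 514083 in control pools. None of these markers was at 0. The part of other cells in the transporter values below was not tested.

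The Slc1 family holds the glutamate carriers Slc1a1, Slc1a2, Slc1a3, Slc1a6 and Slc1a7 and the neutral amino acid exchangers Slc1a4 and Slc1a5. By their brightest probe sets all 7 genes had log2 fold changes below 0, from -0.74 to -0.20 with a median of -0.40, and none passed the unadjusted thresholds. The median of the family stayed below 0 in all 16 alternative settings in which it was computed (-0.74 to -0.063), and it was -0.13 in the shared-number arrays. The median of all genes was below 0 in each of these settings too (-0.18 to -0.039), so the sign alone does not set the family apart. All settings reuse the same arrays. The replicate block leaves the medians unchanged, and the fixed block on the leading title number repeats the shared-number value. Slc1a4, a sodium-dependent exchanger of alanine, serine and cysteine, had signals of 2351, 2019 and 3632 in Stat3Δ/Δ cells, against 5941, 4095 and 3353 in control cells. The third Stat3Δ/Δ pool lay within the control range, and the log2 fold change was -0.74 (SE 0.33, adjusted p = 0.605 from limma). The other 2 probe sets of Slc1a4 gave -0.55 and -0.56, so all 3 pointed the same way. In Slc1a5, the glutamine exchanger of proliferating cells, signals of the brightest probe set were 6807, 3059.7 and 10737 in Stat3Δ/Δ cells, against 9078, 8690.5 and 6087 in control cells. These overlapped (log2 fold change -0.36), and its other probe set gave 0.60.

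Slc1a3, a high-affinity glutamate carrier best known from astrocytes, had 6 probe sets, of which 1 passed the unadjusted thresholds. That probe set (1426341_at) gave 1561, 1037 and 1191 in Stat3Δ/Δ cells, against 613, 471 and 893 in control cells, with no overlap between the groups. Its log2 fold change was 0.82 (SE 0.29, unadjusted p = 0.0206, adjusted p = 0.529 from limma). Leaving out Stat3Δ/Δ pool 1 (0.69) or control pool 2 (0.63) took it below the thresholds. The 3 brighter probe sets of the gene did not show this. The brightest gave 4055, 4620 and 4229.5 in Stat3Δ/Δ cells, against 6319, 4074 and 4689 in control cells. The second had 3209, 3520.2 and 3414 in Stat3Δ/Δ cells, against 4656, 3374 and 3549 in control cells. The third had 1516, 2150.1 and 1443 in Stat3Δ/Δ cells, against 1542, 1728 and 1553 in control cells. Their log2 fold changes were -0.20, -0.17 and 0.037, and the groups overlapped in each. Of the 2 dimmest, 1439072_at measured 60.8, 143 and 209 in Stat3Δ/Δ cells, against 38.8, 108 and 138 in control cells. For 1440491_at the signals were 153, 136 and 122 in Stat3Δ/Δ cells, against 78.7, 20.5 and 156 in control cells. Their log2 fold changes were 0.24 and 0.41, so of the 6 probe sets 4 lay above 0 and 2 below.

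Slc1a2, the main glutamate carrier of astrocytes, had 5 probe sets. The one past the unadjusted thresholds (1459014_at) had 254, 399 and 443 in Stat3Δ/Δ cells, against 273, 14 and 45.5 in control cells. The first control pool lay inside the Stat3Δ/Δ range. Its log2 fold change was 1.38 (SE 0.55, unadjusted p = 0.0364, adjusted p = 0.565 from limma), and it missed the thresholds without pools 2 (1.3) or 3 (1.21) of Stat3Δ/Δ mice and without pools 2 (0.94) or 3 (1.15) of controls. The brightest probe set pointed the other way, with 495, 259 and 37 in Stat3Δ/Δ cells, against 625, 243 and 194 in control cells and a log2 fold change of -0.66. Probe set 1451627_a_at had 49.3, 132 and 37.9 in Stat3Δ/Δ cells, against 34.7, 98.3 and 210.2 in control cells. Probe set 1439940_at had 42.1, 22.8 and 158 in Stat3Δ/Δ cells, against 66.7, 148 and 51.6 in control cells. Probe set 1433094_at had 31.4, 26.4 and 13.5 in Stat3Δ/Δ cells, against 71.1, 41.2 and 20.4 in control cells. In these 3 the groups overlapped, and the log2 fold changes were -0.37, -0.31 and -0.35. The remaining glutamate carriers, Slc1a1, Slc1a6 and Slc1a7, had -0.38, -0.46 and -0.40 on their brightest probe sets, and 2 other probe sets of Slc1a1 gave 0.37 and 0.95.

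The heavy chain Slc3a2 (CD98), which carries most Slc7 exchangers to the plasma membrane, had 1 probe set with signals of 25520.2, 32259.5 and 44461 in Stat3Δ/Δ cells, against 39359, 27428 and 27289 in control cells. As signals, the highest and the lowest array were both Stat3Δ/Δ pools, and the log2 fold change was 0.18 (SE 0.27, adjusted p = 0.887 from limma). Slc3a1, the heavy chain of the cystine carrier of kidney and gut, was dim, with 146, 16.4 and 254 in Stat3Δ/Δ cells, against 196, 322 and 54.6 in control cells. Its values overlapped widely (log2 fold change -0.51).

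With all 6 arrays and no block, none of the 10 light chain genes passed the unadjusted thresholds by any of 14 probe sets, and their median on brightest probe sets was -0.051 (0.032 with no normalization between arrays). Slc7a5 (LAT1), the exchanger that brings leucine and other large neutral amino acids into the cell, had 1493, 1301 and 1667 in Stat3Δ/Δ cells, against 2881, 2473 and 996 in control cells. Control pool 3 was the lowest of all arrays, and the other 2 control pools the highest, which gave a log2 fold change of -0.37 (SE 0.42, adjusted p = 0.838 from limma), with 0.49 in the shared-number arrays. Without control pool 3 it was -0.86 and passed the unadjusted thresholds. Slc7a8, a second leucine exchanger, had 541, 589.8 and 546 in Stat3Δ/Δ cells, against 701, 795 and 165 in control cells. Here too control pool 3 stood below every other array, and the log2 fold change was 0.11. In the shared-number arrays, where that pool is the one control, it was 1.39, and with a fixed block on the leading title number this probe set passed the unadjusted thresholds (unadjusted p = 0.00696 from limma). The y+L exchangers Slc7a6 and Slc7a7, which export cationic amino acids, overlapped between the groups. Slc7a6 had 919, 1051 and 1426 in Stat3Δ/Δ cells, against 1197, 949 and 1112 in control cells (log2 fold change -0.011). Slc7a7 had 1114, 1370 and 1357 in Stat3Δ/Δ cells, against 1329, 1169 and 1503 in control cells (log2 fold change -0.092).

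Slc7a11 (xCT), the cystine and glutamate exchanger that feeds glutathione synthesis, is a known ATF4 target and carried both motifs in its promoter window. Its brightest probe set had 656, 596 and 338 in Stat3Δ/Δ cells, against 451, 547 and 514 in control cells. Stat3Δ/Δ pool 3 was the lowest array, pools 1 and 2 the highest, and the log2 fold change was -0.10 (SE 0.28, adjusted p = 0.95 from limma). The second probe set, with nearly the same mean, had 900.3, 817 and 332 in Stat3Δ/Δ cells, against 128, 437 and 371 in control cells. It gave 0.89 (SE 0.44, adjusted p = 0.636 from limma), again with pool 3 apart from the other Stat3Δ/Δ pools. Slc7a9, the light chain of the cystine carrier, had 188, 45.4 and 174 in Stat3Δ/Δ cells, against 180.4, 251 and 50.3 in control cells (log2 fold change -0.29). Slc7a10, an exchanger of small neutral amino acids including D-serine, had 298, 75.9 and 239 in Stat3Δ/Δ cells, against 163, 307 and 171 in control cells (log2 fold change -0.25). Both overlapped. Slc7a12, Slc7a13 and Slc7a15 had log2 fold changes of 0.11, 0.21 and 0.042.

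The cationic amino acid carriers work without a heavy chain. Slc7a1, the general arginine and lysine carrier, had 3 probe sets. The brightest had 8921, 7251 and 7151 in Stat3Δ/Δ cells, against 6508, 7643 and 6036 in control cells. The second had 4779, 2962 and 3429.8 in Stat3Δ/Δ cells, against 3461, 4210.1 and 3704 in control cells. Both overlapped, with log2 fold changes of 0.22 and -0.059. The dimmest (1421533_at) had 235, 120.5 and 247 in Stat3Δ/Δ cells, against 28.4, 69.2 and 10.8 in control cells. Every Stat3Δ/Δ array was above every control array, and the log2 fold change was 1.25 (SE 0.32, unadjusted p = 0.00424, adjusted p = 0.469 from limma). It passed the unadjusted thresholds with each of the 6 arrays left out in turn, and it was 1.5 in the shared-number arrays. With the pseudocount at the median signal it was 0.48 and missed the fold. Slc7a1 is one of the genes with the STAT letters, shown above.

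Slc7a4, a relative of the cationic carriers, was lower in Stat3Δ/Δ pools 1 and 2 on all 3 of its probe sets and overlapped the controls in pool 3. The brightest had 3620.3, 3532 and 6225 in Stat3Δ/Δ cells, against 7711, 6038 and 6266 in control cells, and the fitted value was -0.61 (SE 0.30, adjusted p = 0.642 from limma). It passed the unadjusted thresholds without Stat3Δ/Δ pool 3 (-0.88) and with array weights (-0.72). The others gave -0.75 and -0.76. Slc7a2, the arginine carrier induced in activated macrophages and epithelium, gave 0.078, 0.78, 0.44 and 0.26 over 4 probe sets, all above 0. Slc7a3 and Slc7a14 had -0.23 and 0.27. The median of the 5 genes was 0.078, and it turned to -0.069 when arrays were centred on their medians.

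**Figure D3:**
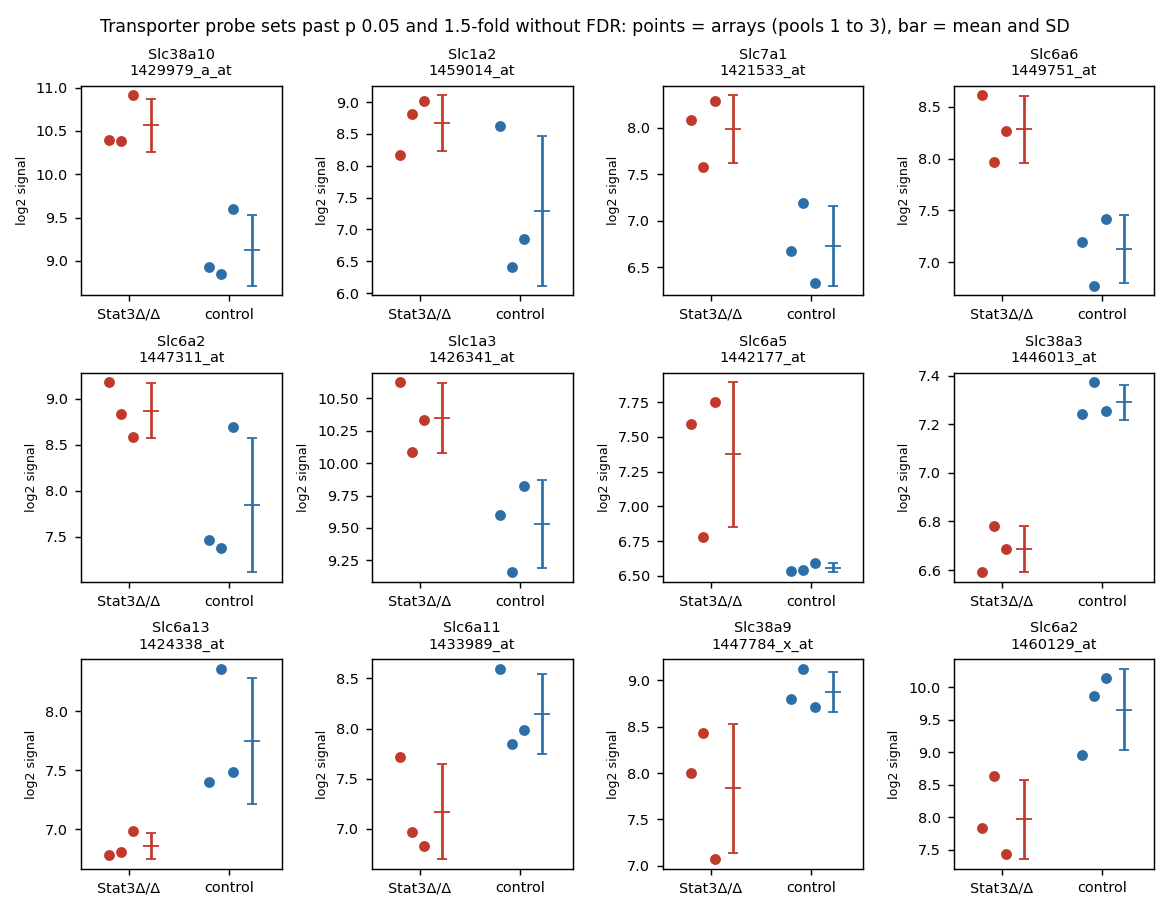
Normalized log2 signals of the 12 transporter probe sets past an unadjusted p of 0.05 and 1.5-fold, each point an array (red, Stat3Δ/Δ pools; blue, control pools), with mean and SD beside them. In 10 of the 12 panels the groups do not overlap, and no panel passed the FDR. The panels were selected by p and fold on these same arrays, so their separation adds no support.

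Among the amino acid carriers of the Slc6 family, 6 of 12 genes lay above and 6 below 0, with a median of 0.052 that turned to -0.018 when arrays were centred on their medians. Slc6a14, which takes up neutral and cationic amino acids with sodium and chloride, had 11855, 7531 and 5692 in Stat3Δ/Δ cells, against 7849.7, 5983 and 6790.1 in control cells on its brightest probe set. Stat3Δ/Δ pool 1 was the highest array, the other arrays overlapped, and the log2 fold change was 0.27 (SE 0.33, adjusted p = 0.858 from limma). On the second probe set the signals were 8446, 3074 and 2590.4 in Stat3Δ/Δ cells, against 1470, 2107 and 2419 in control cells, with all Stat3Δ/Δ arrays above the controls. The log2 fold change was 1.02 (SE 0.45, unadjusted p = 0.0515, adjusted p = 0.595 from limma), just beyond the threshold. Slc6a5, the neuronal glycine carrier, was dim on both probe sets. The one past the unadjusted thresholds (1442177_at) had 144, 39.9 and 152 in Stat3Δ/Δ cells, against 20.5, 21.7 and 27.4 in control cells, all Stat3Δ/Δ arrays being above the controls. Its log2 fold change was 0.81 (SE 0.31, unadjusted p = 0.0291, adjusted p = 0.551 from limma). It missed the thresholds in 5 of 6 fits with an array left out, with values of 0.62 to 0.83. The brighter one had 45.8, 103 and 233 in Stat3Δ/Δ cells, against 99.6, 69.1 and 206 in control cells (log2 fold change -0.12).

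Slc6a9, the other glycine carrier, had -0.26 and 0.024 on 2 probe sets. The largest values of this group were those of Slc6a18 (0.83), Slc6a20b (0.68) and Slc6a20a (0.62), carriers of neutral and imino acids in kidney and gut, with adjusted p of 0.671, 0.621 and 0.724 from limma. For Slc6a20a the value in the shared-number arrays was 1.58, since control pool 3 was the lowest array. Slc6a19 (0.34), Slc6a15 (0.21), Slc6a7 (-0.11), Slc6a21 (-0.10), Slc6a16 (-0.26) and Slc6a17 (-0.46) had lower values.

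The remaining Slc6 genes carry transmitters, creatine, taurine and betaine. By their brightest probe sets all 8 lay below 0 (median -0.37), and 3 passed the unadjusted thresholds, which are the 3 genes named above as lower. The median was below 0 in all 16 alternative settings (-0.98 to -0.15), as was that of all genes. Slc6a2, the noradrenaline carrier, which pulmonary endothelium is known to express, had 187, 340 and 108 in Stat3Δ/Δ cells, against 361, 843 and 1112 in control cells on its brightest probe set. No Stat3Δ/Δ array reached the control range, and the log2 fold change was -1.69 (SE 0.42, unadjusted p = 0.0036, adjusted p = 0.467 from limma). It passed the unadjusted thresholds with each array left out in turn and was -1.91 in the shared-number arrays. Endothelial markers, given beside it, had 4 of 5 log2 fold changes below 0 (median -0.31), with a summed signal of 7055 to 8509 in Stat3Δ/Δ pools and 7786 to 11350 in control pools. Their part in the Slc6a2 value was not tested.

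The other 3 probe sets of Slc6a2 lay above 0. Probe set 1447311_at had 567, 404 and 317 in Stat3Δ/Δ cells, against 88.2, 88.3 and 369 in control cells. Control pool 3 lay inside the Stat3Δ/Δ range, and the log2 fold change was 1.03 (SE 0.39, unadjusted p = 0.0299, adjusted p = 0.553 from limma). It missed the thresholds without pools 1 (0.87) or 2 (1.03) of Stat3Δ/Δ mice and without pools 1 (0.84) or 2 (0.79) of controls. Probe set 1421641_at had 236, 306 and 255 in Stat3Δ/Δ cells, against 109, 239.5 and 230.1 in control cells. Probe set 1442449_at had 315, 210.2 and 225 in Stat3Δ/Δ cells, against 178, 139.6 and 248 in control cells. These overlapped, with log2 fold changes of 0.25 and 0.18. The mean over the 4 probe sets was -0.056, so the gene as a whole had no single direction, and where each probe set lies in the transcript was not analysed here.

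The GABA carriers Slc6a11 and Slc6a13 were both dim. Slc6a11 had 164, 56.3 and 47.6 in Stat3Δ/Δ cells, against 268, 146 and 195 in control cells. Stat3Δ/Δ pool 1 overlapped the controls as a signal but not after normalization, and the log2 fold change was -0.97 (SE 0.34, unadjusted p = 0.0199, adjusted p = 0.526 from limma). It missed the thresholds without pools 2 (-0.87) or 3 (-0.80) of Stat3Δ/Δ mice and without pool 1 of controls (-0.75). Its second probe set had 12.8, 12.4 and 18.3 in Stat3Δ/Δ cells, against 46.8, 18.5 and 21.2 in control cells (log2 fold change -0.27), also without overlap but near the bottom of the scale. Slc6a13 had 46.3, 41.9 and 61.4 in Stat3Δ/Δ cells, against 82.1, 237 and 116 in control cells. Control pool 2 stood above the rest, the groups did not overlap, and the log2 fold change was -0.89 (SE 0.31, unadjusted p = 0.0216, adjusted p = 0.532 from limma). It missed the thresholds without pools 1 (-0.84) or 2 (-0.86) of Stat3Δ/Δ mice and without pool 2 of controls (-0.59).

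Slc6a6, the taurine carrier, was among the genes with the brightest probe sets. Its brightest had 9179, 10766 and 9614 in Stat3Δ/Δ cells, against 9454, 8778 and 12611 in control cells. The second had 4947, 3297 and 4383 in Stat3Δ/Δ cells, against 3083, 4711 and 4649 in control cells. With log2 fold changes of -0.026 and 0.018, both overlapped. The 2 dim ones lay above 0. Probe set 1449751_at had 366, 181 and 242 in Stat3Δ/Δ cells, against 62.9, 36.1 and 106 in control cells, with every Stat3Δ/Δ array above every control array. Its log2 fold change was 1.15 (SE 0.29, unadjusted p = 0.00409, adjusted p = 0.469 from limma). It passed the unadjusted thresholds with each array left out in turn, and was 0.51 with the pseudocount at the median signal, short of the fold. Probe set 1420148_at had 104, 535 and 227 in Stat3Δ/Δ cells, against 28.5, 39.4 and 341 in control cells. It overlapped, and gave 0.86. Slc6a8, the creatine carrier, gave -0.12 and 0.24, and the dopamine (Slc6a3), serotonin (Slc6a4) and betaine (Slc6a12) carriers gave -0.45, -0.20 and -0.29.

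**Figure D4:**
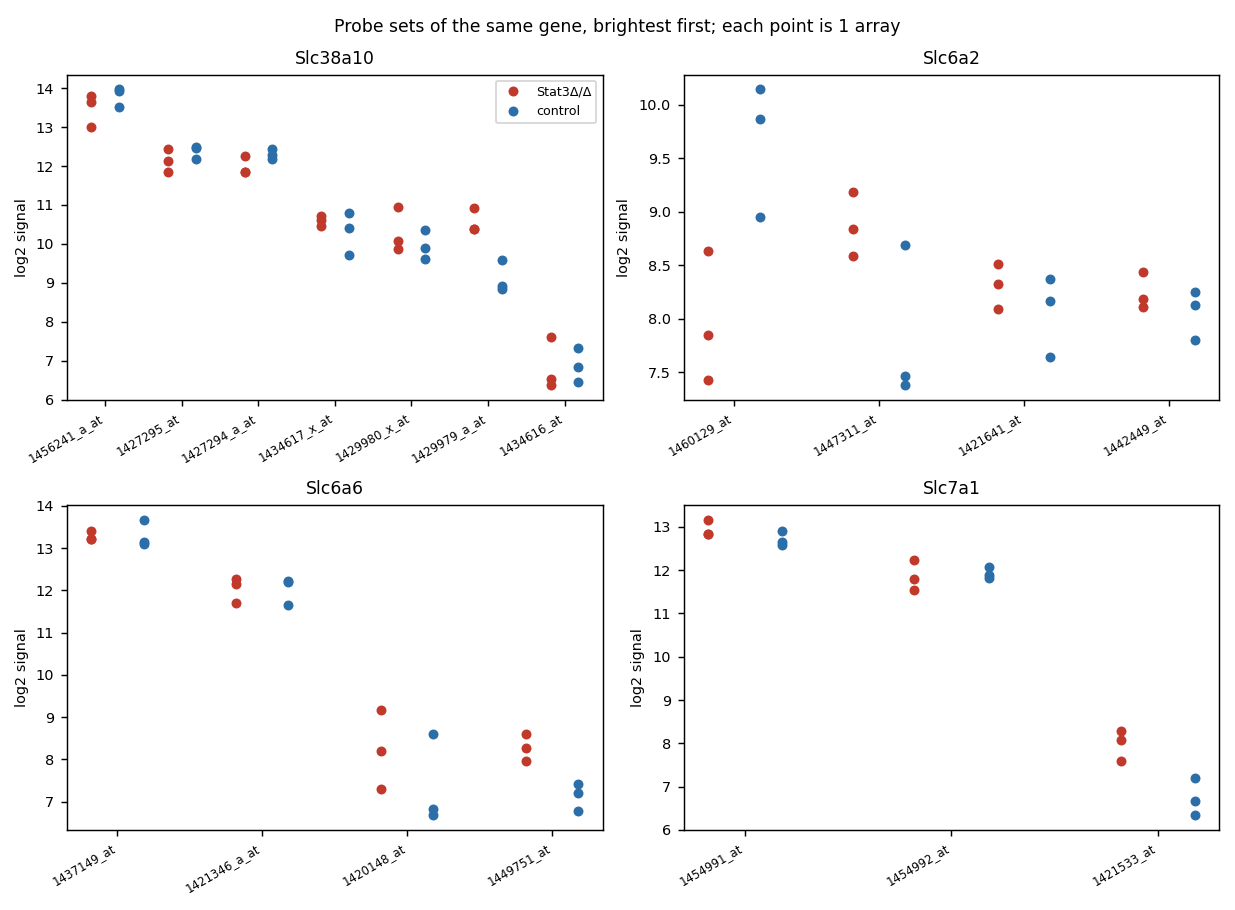
Normalized log2 signals of every probe set of Slc38a10, Slc6a2, Slc6a6 and Slc7a1, ordered from the brightest on the left, with Stat3Δ/Δ arrays in red to the left of control arrays in blue. In Slc38a10, Slc6a6 and Slc7a1 the groups separate only on a dimmer probe set, and in Slc6a2 the brightest separates downward while the others do not.

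The proton-coupled carriers Slc36a1, which exports small amino acids from lysosomes, Slc36a2, Slc36a3 and Slc36a4 gave 0.035, -0.23, -0.47 and 0.30, with a median of -0.10, and the groups overlapped in each. The median turned above 0 with no normalization between arrays (0.0021).

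The Slc38 family had a median of -0.24, with 2 of 9 genes above 0. The median was -0.042 in the shared-number arrays and turned to 0.026 without control pool 2. Slc38a2, the sodium-coupled neutral carrier that is induced by amino acid starvation, had the brightest probe set of all transporters. Its signals were 50976, 50834 and 52514 in Stat3Δ/Δ cells, against 42378, 37461 and 51069 in control cells. The third control pool lay within the Stat3Δ/Δ range, and the log2 fold change was 0.37 (SE 0.25, adjusted p = 0.729 from limma). Its other probe sets gave 0.70 and 0.065, so all 3 were above 0 and none passed. The first of these had 8676, 5400.1 and 4576 in Stat3Δ/Δ cells, against 2731, 2291 and 7770.4 in control cells, with control pool 3 again in the Stat3Δ/Δ range, and in the shared-number arrays it gave -0.18. Slc38a1, the related glutamine carrier, gave -0.24 and -0.33, and Slc38a4 0.32 and -0.016. Slc38a7, a carrier of glutamine out of lysosomes, had 1062, 1218 and 1191 in Stat3Δ/Δ cells, against 1434, 1316 and 1567 in control cells. No Stat3Δ/Δ array reached the controls, but the difference was small, with a log2 fold change of -0.34 (SE 0.24, adjusted p = 0.735 from limma). Slc38a5 and Slc38a6 gave -0.35 and -0.082.

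Slc38a3, a glutamine carrier of liver and brain, had 372, 421 and 334 in Stat3Δ/Δ cells, against 167, 934 and 394 in control cells on its brightest probe set (log2 fold change -0.22). Its second (1446013_at) had 30, 40 and 36.1 in Stat3Δ/Δ cells, against 66.8, 87.6 and 86.2 in control cells. The groups did not overlap, at signals near the pseudocount. The log2 fold change was -0.60 (SE 0.23, unadjusted p = 0.0307, adjusted p = 0.553 from limma), and it missed the thresholds in each of the 6 fits with an array left out, with values of -0.65 to -0.54.

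Slc38a9 is a lysosomal carrier that senses arginine for mTORC1, and its promoter window holds the STAT letters. Of its 7 probe sets 1 passed the unadjusted thresholds (1447784_x_at), with 217, 283 and 69.4 in Stat3Δ/Δ cells, against 316, 456 and 376 in control cells. Stat3Δ/Δ pool 3 was far below the rest, the groups did not overlap, and the log2 fold change was -1.04 (SE 0.37, unadjusted p = 0.0221, adjusted p = 0.532 from limma). It missed the thresholds without that pool (-0.67) and without control pool 2 (-0.92). The brightest had 803, 896 and 642 in Stat3Δ/Δ cells, against 956, 873 and 888 in control cells. Probe set 1436456_at had 395, 414 and 276 in Stat3Δ/Δ cells, against 459.8, 321 and 535 in control cells. Probe set 1449791_x_at had 229, 466 and 402 in Stat3Δ/Δ cells, against 153, 263 and 312 in control cells. All 3 overlapped, with log2 fold changes of -0.27, -0.37 and 0.34. Probe set 1455612_at had 336, 258 and 344 in Stat3Δ/Δ cells, against 279, 289.6 and 302 in control cells. Probe set 1454283_at had 399, 309 and 299 in Stat3Δ/Δ cells, against 371, 74.1 and 248 in control cells. For 1455360_at they were 47.7, 159 and 19.9 in Stat3Δ/Δ cells, against 50.3, 18.9 and 57.4 in control cells. These 3 overlapped as well and gave -0.057, 0.43 and 0.20, so that 3 of the 7 lay above 0.

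Slc38a10, a carrier of glutamine, glutamate and aspartate, had the probe set with the lowest p of all transporters (1429979_a_at). Its signals were 1329.7, 1294 and 1806 in Stat3Δ/Δ cells, against 353, 364 and 752 in control cells. All Stat3Δ/Δ arrays were above all control arrays, and the log2 fold change was 1.44 (SE 0.31, unadjusted p = 0.00142, adjusted p = 0.448 from limma). It passed the unadjusted thresholds with each array left out in turn, and was 0.79 in the shared-number arrays. The brightest of its 7 probe sets pointed the other way, with 7971, 13772 and 13118 in Stat3Δ/Δ cells, against 16809, 11719 and 15469.9 in control cells (log2 fold change -0.32). Probe set 1427295_at had 3684, 4378 and 5454 in Stat3Δ/Δ cells, against 5764, 4599 and 5532 in control cells. Probe set 1427294_a_at had 3667, 3655 and 4736 in Stat3Δ/Δ cells, against 4975, 4596 and 5487 in control cells. Both overlapped and gave -0.24 and -0.33. For 1434617_x_at they were 1391, 1538 and 1574 in Stat3Δ/Δ cells, against 1178, 751 and 1771 in control cells. For 1429980_x_at they were 914, 1034 and 1845 in Stat3Δ/Δ cells, against 1132, 691 and 931 in control cells. The dim 1434616_at had 14.6, 125 and 23.5 in Stat3Δ/Δ cells, against 15.8, 41.2 and 95.4 in control cells. These gave 0.29, 0.35 and -0.038, with overlap in each, so no other probe set of the gene passed the unadjusted thresholds.

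The facilitated carriers Slc43a1 and Slc43a2 export large neutral amino acids, and Slc43a3 carries purine bases. All 3 lay below 0 (median -0.58). The median was below 0 in all 16 alternative settings (-0.60 to -0.14), as was that of all genes. Slc43a2 had 4611, 6940.2 and 6908 in Stat3Δ/Δ cells, against 11950.5, 7439 and 8646 in control cells on its brightest probe set and 1476, 1338 and 1217 in Stat3Δ/Δ cells, against 1811, 1811 and 2143 in control cells on the second. In both the groups did not overlap, with log2 fold changes of -0.58 (SE 0.29, adjusted p = 0.645 from limma) and -0.52 (SE 0.23, adjusted p = 0.602 from limma). The dimmest probe set gave 0.67. Slc43a1 had 283, 159 and 141 in Stat3Δ/Δ cells, against 218, 329.5 and 312 in control cells, where Stat3Δ/Δ pool 1 overlapped as a signal but not after normalization, and gave -0.59 (SE 0.27, adjusted p = 0.613 from limma). Slc43a3 gave -0.12.

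The opposite-strand genes Slc7a6os, Slc6a19os and Slc36a1os gave -0.13, -0.11 and 0.087, and none passed.

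Probe sets of the same gene often differed in sign. Of the 32 genes with several probe sets, 23 had log2 fold changes on both sides of 0, 5 had all below and 4 all above. The same share over all genes was not computed, and some of these values lie close to 0. Of the 11 genes with a probe set past the unadjusted thresholds, 8 had probe sets on both sides of 0. Another of the 11, Slc6a13, has only 1 probe set. With a fixed block on the leading title number, 2 of the 12 probe sets still passed, 1421533_at of Slc7a1 and 1460129_at of Slc6a2. No gene had 2 probe sets past the unadjusted thresholds in the same direction, which is how the study chose changes without the FDR.

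Genes that act with the carriers were examined for comparison. Of 19 amino acid response genes driven by ATF4, 0 were higher and 1 was lower at the unadjusted thresholds (median -0.12). This was Ddit4, an inhibitor of mTORC1, with 6457, 7913 and 8024 in Stat3Δ/Δ cells, against 10553, 13294 and 11118 in control cells. The groups did not overlap, and the log2 fold change was -0.62 (SE 0.25, unadjusted p = 0.0365, adjusted p = 0.565 from limma). Of 19 genes of serine, glycine, proline and asparagine synthesis and turnover, 1 was higher and 1 lower (median -0.10). Got1, the cytosolic aspartate transaminase, had 3121, 3495 and 4858 in Stat3Δ/Δ cells, against 1617, 2726 and 2453 in control cells. Its log2 fold change was 0.71 (SE 0.30, unadjusted p = 0.0425, adjusted p = 0.579 from limma). Prodh, which begins proline breakdown, had 569, 967 and 1399 in Stat3Δ/Δ cells, against 2487, 2089.7 and 2201 in control cells. The groups were apart, and the log2 fold change was -1.28 (SE 0.36, unadjusted p = 0.00766, adjusted p = 0.49 from limma).

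None of 20 cytosolic aminoacyl-tRNA synthetases (median -0.12) or of 25 genes of amino acid sensing by mTORC1 (median -0.19) passed. Among 22 amino acid and peptide carriers of other families (median -0.19), Slc66a1, which exports cationic amino acids from lysosomes, was lower, with 628, 1167 and 1321 in Stat3Δ/Δ cells, against 1870.1, 1501 and 2109 in control cells. The groups did not overlap, and the log2 fold change was -0.88 (SE 0.35, unadjusted p = 0.0354, adjusted p = 0.563 from limma). Of 17 genes of branched-chain amino acid breakdown (median -0.027), Bckdk, the kinase that restrains it, was lower, with 2056, 2074 and 2114 in Stat3Δ/Δ cells, against 3973, 2829.6 and 3138 in control cells. Its log2 fold change was -0.65 (SE 0.25, unadjusted p = 0.0312, adjusted p = 0.556 from limma). In all, 5 of these genes passed and none passed the FDR, beside the 2.19% higher and 5.56% lower among all genes. With the leading title number as a block, 3 passed, and the share over all genes was not computed for that fit.

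**Figure D5:**
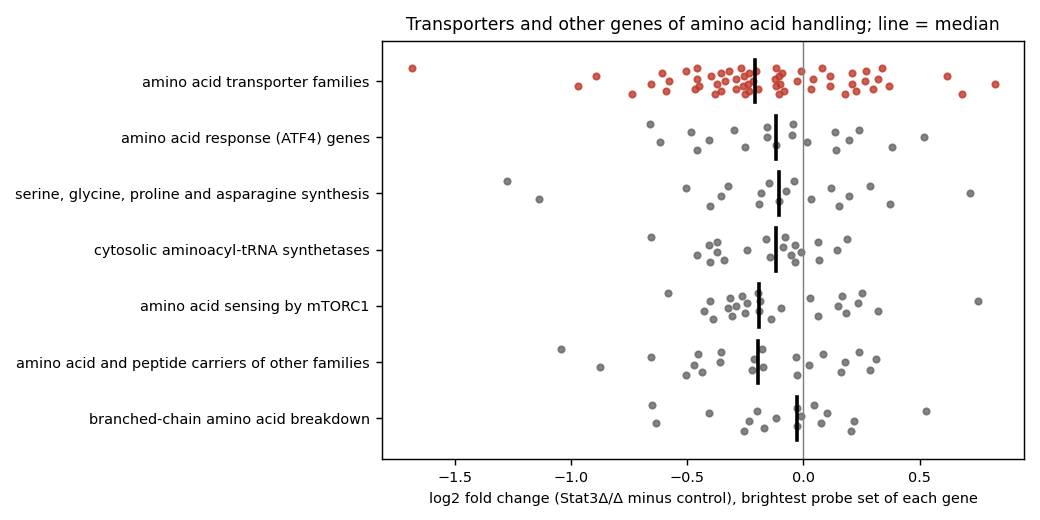
Log2 fold change (Stat3Δ/Δ minus control, x axis) of the 60 carrier genes and of 6 related gene groups, each point a gene by its brightest probe set and each line a median. The medians lie between -0.21 for the carriers and -0.027 for branched-chain amino acid breakdown.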

How the data were processed

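RNA of pooled alveolar type II cells was hybridized to 6 MOE430 arrays, 1 per pool of 3 mice. The deposited values are linear signal intensities from Affymetrix Microarray Suite (MAS5), which the authors scaled to one trimmed mean on each array. The RMA values on which the study's own tests rest were not used here. Of 45101 probe sets 64 controls were left out and 45037 tested. A pseudocount of 69.9, taken at the 20th percentile of signals, was added, log2 was taken, arrays were quantile normalized, and a fit with limma 3.58.1 (R 4.3.3) was made with 1 term for the group, with Benjamini-Hochberg adjustment over all 45037 probe sets. Calls were tested on simulated data. The brightest probe set on average, among those that name a gene alone, stood for the gene (34945 of the probe sets name 1 gene, 932 several and 9160 none). Symbols were updated through the RefSeq gene table of GRCm38.p6, and promoter sequences are from RefSeq (GRCm38.p6).

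Named with all array values were genes with any probe set past an unadjusted p of 0.05 and 1.5-fold, the 10 genes with the brightest probe sets, both heavy chains and Slc7a5 to Slc7a11. From each related list up to 3 genes past these thresholds were named. Slc1a4, Slc38a7 and Slc43a1 were shown in full after their values were seen. The members and the gene lists were chosen with earlier results of these data known. Groups follow the sample titles. One label field gives the triple-transgenic genotype for controls as well. Alternatives changed the pseudocount, normalization, filter, variance model, test, weights, blocks, thresholds and the arrays used. Precision is limited by having 3 arrays in each group, and p-values measure only the spread between these pools. Plots were drawn with Python 3.11.15, pandas 2.3.3 and matplotlib 3.10.9.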

Additional observations from a re-analysis of the deposited data

How the results depend on the processing

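No transporter probe set passed the FDR under any alternative run with limma or the t-test. The count of 7 higher probe sets without the FDR was 9 with an intensity trend and robust variance fit (7.2%, beside 4.36% of all probe sets). With array weights it was 9 as well (7.2%, beside 6.46%). It was 3 with a fixed block on the leading title number (2.4%, beside 3.09%). It was 2 with the pseudocount at the median signal (1.6%, beside 2.24%) and 4 with the t-test (3.2%, beside 2.22%). At p at most 0.01 it was 3 (2.4%, beside 0.964%). With only probe sets at or above the median signal it was 3, where 1287 probe sets were higher in all. This filter left out 57 of the 125 transporter probe sets and about 22516 of all 45037, and shares of the remaining sets were not computed. Leaving out 1 array gave 4 (without control pool 2) to 11 (without control pool 3). These are 3.2% and 8.8% of 125, where 3.26% and 6.5% of all probe sets were higher. The count of 5 lower was 9 with array weights (7.2%, beside 5.97% of all probe sets) and 8 with arrays centred on their medians (6.4%, beside 5.08%). It was 2 with a fixed block on the leading title number (1.6%, beside 3.06%) and 3 with the higher pseudocount (2.4%, beside 1.81%). The t-test gave 3 (2.4%, beside 2.7%) and p at most 0.01 gave 1 (0.8%, beside 1.03%). With the signal filter it was 3, where 1087 probe sets were lower in all, both counted over the smaller sets given above. Leaving out 1 array gave 2 (without Stat3Δ/Δ pool 2) to 9 (without Stat3Δ/Δ pool 3). These are 1.6% and 7.2% of 125, where 3.38% and 5.28% of all probe sets were lower. The median of -0.20 over genes became -0.034 with a fixed block on the leading title number, which is the value within the 3 arrays that share it, and -0.056 with the mean over all probe sets of a gene; leaving out 1 array gave -0.24 (without control pool 3) to -0.10 (without control pool 1), with -0.11 without Stat3Δ/Δ pool 1. The count of 5 genes from the related lists became 3 with that block, for which the share over all genes was not computed. The causes were not tested. Of 171 values of the 12 probe sets past the unadjusted thresholds, none turned its sign, and 115 still passed. These probe sets were selected by p and fold on the same arrays, so their kept signs are no separate support. Of 330 values of the other named probe sets 41 turned their sign and 4, of Slc7a4, Slc7a5 and Slc7a8, passed. Since those were not selected by p and fold, the 2 sets of values cannot be compared as a measure of stability.

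Same-numbered pools did not deviate together (correlations of -0.084, -0.0088 and -0.24 for numbers 1, 2 and 3), so the fit used no pairing. With 3 arrays in each group, centred on their own mean, these correlations cannot exclude that same-numbered pools were paired. With the replicate block 8 transporter probe sets were higher without the FDR (6.4%, beside 3.3% of all probe sets). In that fit 4 were lower (3.2%, beside 3.32%), 0 passed the FDR and the median was -0.20. Of the related lists 2 genes passed there, and the share over all genes was not computed for this block. The sources used here do not say what the leading title number means. The arrays' number and the dim signals of most probe sets past the unadjusted thresholds limit all of these values.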
